A study of Rattus norvegicus with 18 samples.

Results

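The effect of RU486, a blocker of the progesterone and glucocorticoid receptors, on rat ovarian follicles was compared between 22:00 of proestrus and 10:00 of estrus, so that genes could be sorted by the time at which treated follicles differed from untreated ones. The comparison used 12 of the 18 samples, chosen by their titles, and 18155 of the 31042 probe sets other than array controls passed a filter on low values. The quantity tested was the interaction: the difference between RU and control follicles at 10:00 minus the difference between RU and control follicles at 22:00, on the log2 scale. A positive interaction means that RU follicles stood higher relative to controls at 10:00 than they did at 22:00.

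All animals were Crl:CD(SD) rats. RU PeF samples were follicles of 22:00 from rats given 1 oral dose of 100 mg/kg RU486 at 10:00 of proestrus, 12 h earlier, and control PeF samples were follicles of the same hour from rats given nothing. RU UF samples were unruptured follicles of 10:00 of estrus, 24 h after the same dose, and control PoF samples were follicles of that hour from untreated rats, which had ruptured. The IM PeF and IM UF groups, from rats given indomethacin, shared the fit and enter 1 comparison at the end. Each group had 3 samples, each a laser-microdissected set of sections from 15 follicles hybridized to 1 Affymetrix array. The labels state 3 animals per group and do not tie samples to animals, so p-values measure the spread between samples. Time of day, hours since the dose and rupture of the control follicles cannot be told apart in the interaction.

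On the afternoon of proestrus a surge of luteinizing hormone starts ovulation and induces the progesterone receptor in granulosa cells, and follicles in which that receptor is missing or blocked do not rupture. The progesterone and glucocorticoid receptors are related transcription factors that bind the same DNA half-site, and RU486 occupies both. After rupture the follicle wall becomes a corpus luteum, a tissue that takes up cholesterol, makes progesterone and is invaded by vessels.

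The arrays differed before any comparison. The array of control PeF replicate 3 stood apart: its median deposited signal was 4.4, against 16.2 and 22.3 for the other control PeF arrays, and the lowest correlation between replicates was 0.869 in control PeF against at least 0.964 in the other groups used here. The log2 ratio of the 3′ to the 5′ Gapdh control probe set, which grows as RNA is more degraded, was 2.66 to 2.95 in RU PeF and 2.96 to 4.11 in control PeF, and 2.86 to 3.27 in RU UF against 2.07 to 2.31 in control PoF. The Gapdh ratio therefore moved with treatment, in opposite directions at the 2 times. The same ratio for beta-actin overlapped between RU and control at both times. It was 4.76 to 5.24 in RU PeF and 4.23 to 5.93 in control PeF. At 10:00 it was 4.79 to 5.64 in RU UF and 4.92 to 5.18 in control PoF. The part of RNA degradation in the results below was not tested. Results were computed with and without control PeF 3. In bulk samples of this kind, fewer cells of a type and less RNA per cell cannot be told apart.

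With limma, the interaction passed a Benjamini-Hochberg adjusted p of 0.05 at 730 probe sets (4.02% of those tested), 396 with a positive (2.18%) and 334 with a negative value (1.84%). Scaling the arrays by their medians in place of quantile normalization gave 67 positive and 273 negative calls, and the deposited signals with no scaling gave 0 positive and 82 negative calls. Those scalings moved the median interaction of all probe sets to -0.39 and -1.45, from -0.07, so the balance of directions given here is that of the quantile-normalized values. Without control PeF 3, 534 positive and 393 negative calls were made. Counted by gene, through the brightest probe set of each, 461 of 10391 passed (4.44%), 236 positive (2.27%) and 225 negative (2.17%). For comparison, RU PeF differed from control PeF at 886 genes (8.53%; 3.77% higher and 4.75% lower) and RU UF from control PoF at 1037 genes (9.98%; 4.52% higher and 5.46% lower). By probe set these shares were 7.42% and 8.7%.

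The 461 genes were sorted by which of the 2 single comparisons was also called. In 158 genes RU differed from control at 22:00 without a call at 10:00 (early-only, 34.3%), of which 96 were lower and 62 higher in RU PeF. In 213 genes the call fell at 10:00 alone (late-only, 46.2%), of which 117 were lower and 96 higher in RU UF. In 31 genes (6.72%) both comparisons were called with opposite signs, 16 going lower to higher and 15 going higher to lower. A further 14 genes were called at both times with the same sign, and 45 at neither. A missed call does not show an absent effect: the 95% interval of the other time's difference lay within 1 log2 unit of 0 in 75 of the 96 early-only lower genes, 45 of the 62 early-only higher, 80 of the 117 late-only lower and 74 of the 96 late-only higher genes. At the threshold, Lmo4 (a LIM-domain cofactor) was the last gene inside with an interaction of -1.03 ± 0.28 (SE; adjusted p = 0.049), and Dipk2a was the first outside with -1.29 ± 0.36 (SE; adjusted p = 0.0501). Another Lmo4 probe set was early-only higher, with an interaction of -2.71 (adjusted p = 0.00264). Its remaining probe sets gave values from -1.06 to 0.58 with no call.

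**Figure D1:**
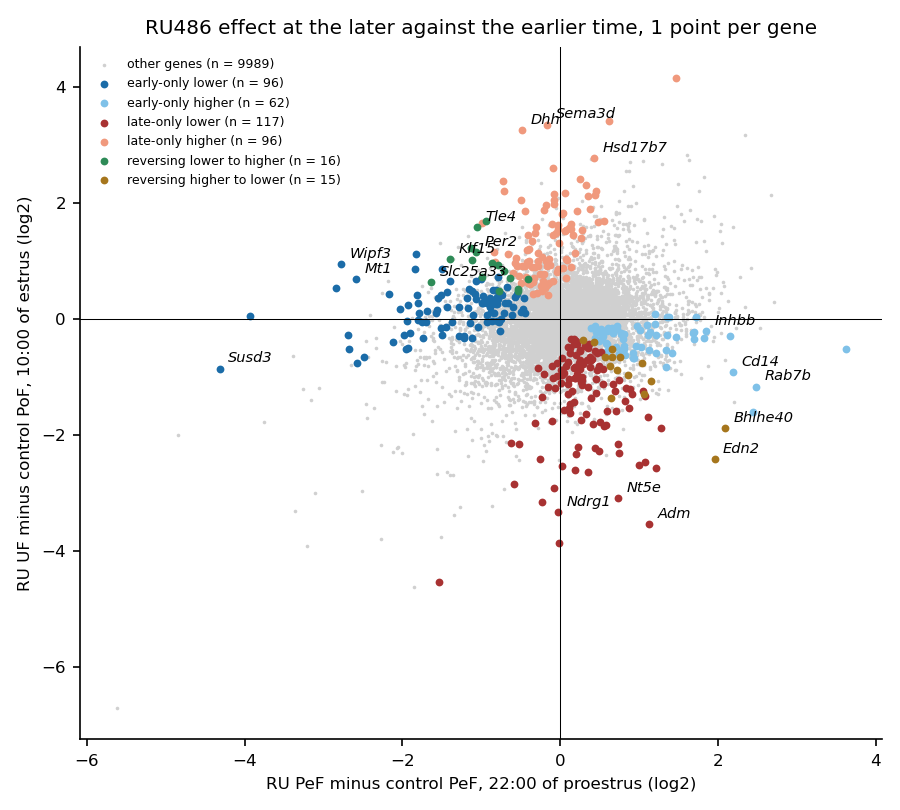
Each point is 1 of 10391 genes, with the log2 difference RU PeF minus control PeF at 22:00 on the x axis and RU UF minus control PoF at 10:00 on the y axis; colours mark the 6 classes. Early-only genes spread along the horizontal axis, late-only genes along the vertical axis, and the 31 reversing genes lie in the upper left and lower right quadrants, as the sorting requires.

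In each class genes were called over time in both arms. Among all genes, 42.7% were called between RU UF and RU PeF (21.3% higher and 21.4% lower at 10:00) and 44.1% between control PoF and control PeF (24.4% higher and 19.7% lower). Of the 117 late-only lower genes, 63 fell and 10 rose in RU UF relative to RU PeF, while 68 rose and 12 fell in control PoF relative to control PeF. Of the 96 late-only higher genes, 63 rose and 4 fell in RU follicles, while 40 fell and 20 rose in controls. Of the 96 early-only lower genes, 42 rose and 13 fell in RU follicles, while 59 fell and 14 rose in controls. These time differences share arrays with the interaction and describe it.

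**Figure D2:**
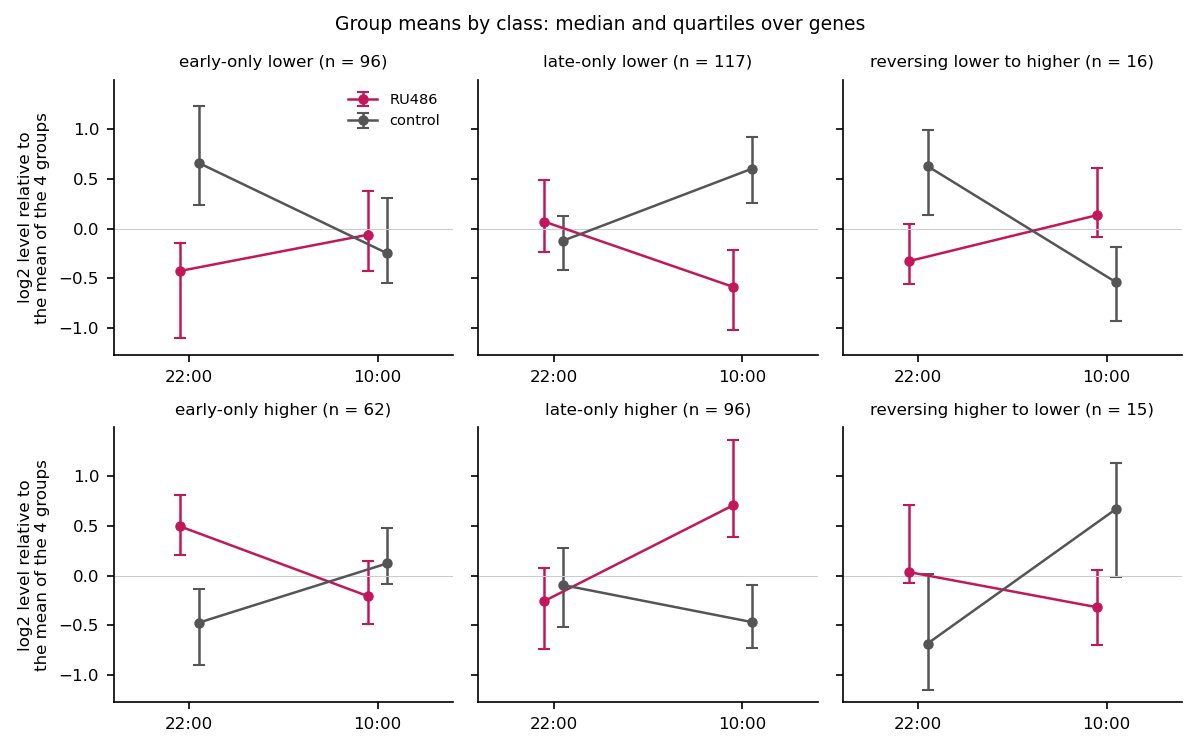
Median and quartiles over the genes of each class of the group mean on the log2 scale, relative to the mean of the 4 groups, for RU486 and control follicles at 22:00 and 10:00. In the late-only lower class the RU median falls and the control median rises with time, and in the late-only higher class the opposite holds; these shapes follow from how the classes were made.

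The early-only lower genes named here included Mt1, Wipf3, Susd3, Aard and Klf9. Mt1, a metal-binding protein that glucocorticoids induce, had log2 signals of 4.88, 4.32 and 3.69 in RU PeF, against 6.81, 6.79 and 7.04 in control PeF. At 10:00 it had 8.26, 7.74 and 8.30 in RU UF, against 7.47, 7.54 and 7.22 in control PoF. All RU values lay below the controls at 22:00 and above them at 10:00, where the difference of 0.69 ± 0.29 (SE) was not called (limma adjusted p = 0.168). Mt1 was 6.0-fold lower at 22:00 (log2 difference -2.58 ± 0.29, SE; adjusted p = 3.05e-05), and its interaction was 3.27 ± 0.41 (SE; adjusted p = 0.000312). Folds here are on the scale of signal plus 2.79, the pseudocount, and understate the change of dim genes.

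Wipf3, a partner of the actin regulators of the Wiskott-Aldrich family, had 4.08, 3.97 and 3.80 in RU PeF, against 7.53, 6.72 and 5.93 in control PeF. The 10:00 signals were 6.50, 6.72 and 6.86 in RU UF, against 5.72, 5.72 and 5.80 in control PoF. The groups did not overlap at either time, and the order changed between them. Wipf3 was 6.85-fold lower at 22:00 (adjusted p = 0.000225), with an interaction of 3.72 ± 0.53 (SE; adjusted p = 0.00084). Among the named genes of this class the largest early differences belonged to Susd3, a sushi-domain membrane protein, at -4.31 ± 0.66 (SE), and Aard, at -3.93 ± 0.70 (SE), with differences of -0.86 ± 0.66 and 0.04 ± 0.70 (SE) at 10:00. Their interactions of 3.45 and 3.97 rested on particular arrays: Susd3 was called in 2 and Aard in 4 of 12 fits that each left out 1 array, with adjusted p up to 0.115 and 0.0856. Fam107a, an actin-associated protein, was -2.83 ± 0.51 (SE) at 22:00 and at background in RU UF.

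Ptges, the inducible prostaglandin E synthase, was at background in RU PeF and at least 2.56-fold lower there than in control PeF (adjusted p = 0.0178). By 10:00 the signals were 7.42, 7.35 and 7.07 in RU UF, against 6.26, 6.19 and 6.06 in control PoF, a difference of 1.11 ± 0.44 (SE) that was not called (adjusted p = 0.147). Where a gene is at background in a group, here and below, its interaction is the fitted value, rests partly on signal not above background, and is no bound. A second Ptges probe set gave an interaction of -0.46 (adjusted p = 0.794), against 2.94 at the first, so the 2 disagree. Il6r, a receptor chain for interleukin-6, and Slc6a6, the taurine transporter, had interactions of 1.93 ± 0.41 and 1.5 ± 0.28 (SE), with RU PeF lower by 1.52 and 1.08 on the log2 scale. A second Slc6a6 probe set was late-only higher, with -0.56 at 22:00 (adjusted p = 0.114) and 0.70 at 10:00 (adjusted p = 0.048).

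The glucocorticoid receptor and its known targets had a median interaction of 0.84, against -0.09 for all genes. It was the largest of the 20 pathway lists with quantile normalization, but with median scaling the interferon list had 0.44 and the glucocorticoid list 0.36. Of 19 measured members, 7 had a called positive interaction and 0 a negative one, beside the 2.27% and 2.17% of all genes. At 22:00, 11 members were lower in RU PeF and 0 higher, beside 4.75% and 3.77% of all genes. At 10:00, 3 were higher and 4 lower in RU UF, beside 4.52% and 5.46% of all genes. The median difference of the list was -0.91 at 22:00 and 0.15 at 10:00, against 0.05 and -0.04 for all genes. The 7 members with a called interaction were Mt1, Klf15, Klf9, Per1, Fkbp5, Mt2A and Nfkbia, the last 2 named to complete the count. With median scaling 3 members had a positive and 1 a negative interaction call, and at 22:00 only 3 were lower in RU PeF and 1 was higher. Without control PeF 3 the interaction counts were 9 and 0.

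Klf9, a zinc-finger transcription factor induced by steroid hormones, had 10.21, 9.76 and 9.71 in RU PeF, against 11.01, 10.61 and 11.51 in control PeF. In the later follicles it had 9.79, 9.82 and 9.71 in RU UF, against 9.33, 9.19 and 9.24 in control PoF. Klf9 stayed near 1 level in RU follicles at both times (RU UF minus RU PeF -0.12, adjusted p = 0.631), while control PoF was lower than control PeF by 1.79 (adjusted p = 8.55e-07). Fkbp5, a co-chaperone of steroid receptors and a target of both receptors RU486 blocks, was -1.11 ± 0.21 (SE) at 22:00 and 0.07 ± 0.21 at 10:00, where its 95% interval ran from -0.36 to 0.50. Its interaction of 1.18 was called in 6 of 12 fits without 1 array, with adjusted p up to 0.0786. A second Fkbp5 probe set was late-only higher, with -0.43 at 22:00 (adjusted p = 0.113) and 0.59 at 10:00 (adjusted p = 0.0298), so the class of Fkbp5 depends on the probe set. Members of the same list lower in RU at both times, with no call for the interaction, included Dusp1, a phosphatase of MAP kinases, lower in RU by 0.96 at 22:00 and by 2.17 at 10:00 (interaction -1.21, 95% interval -2.05 to -0.36, adjusted p = 0.104), and Pdk4, lower by 2.07 and 2.23 (interaction adjusted p = 0.943). Nr3c1, which encodes the glucocorticoid receptor, had an interaction of 0.11 ± 0.31 (SE; adjusted p = 0.889).

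**Figure D3:**
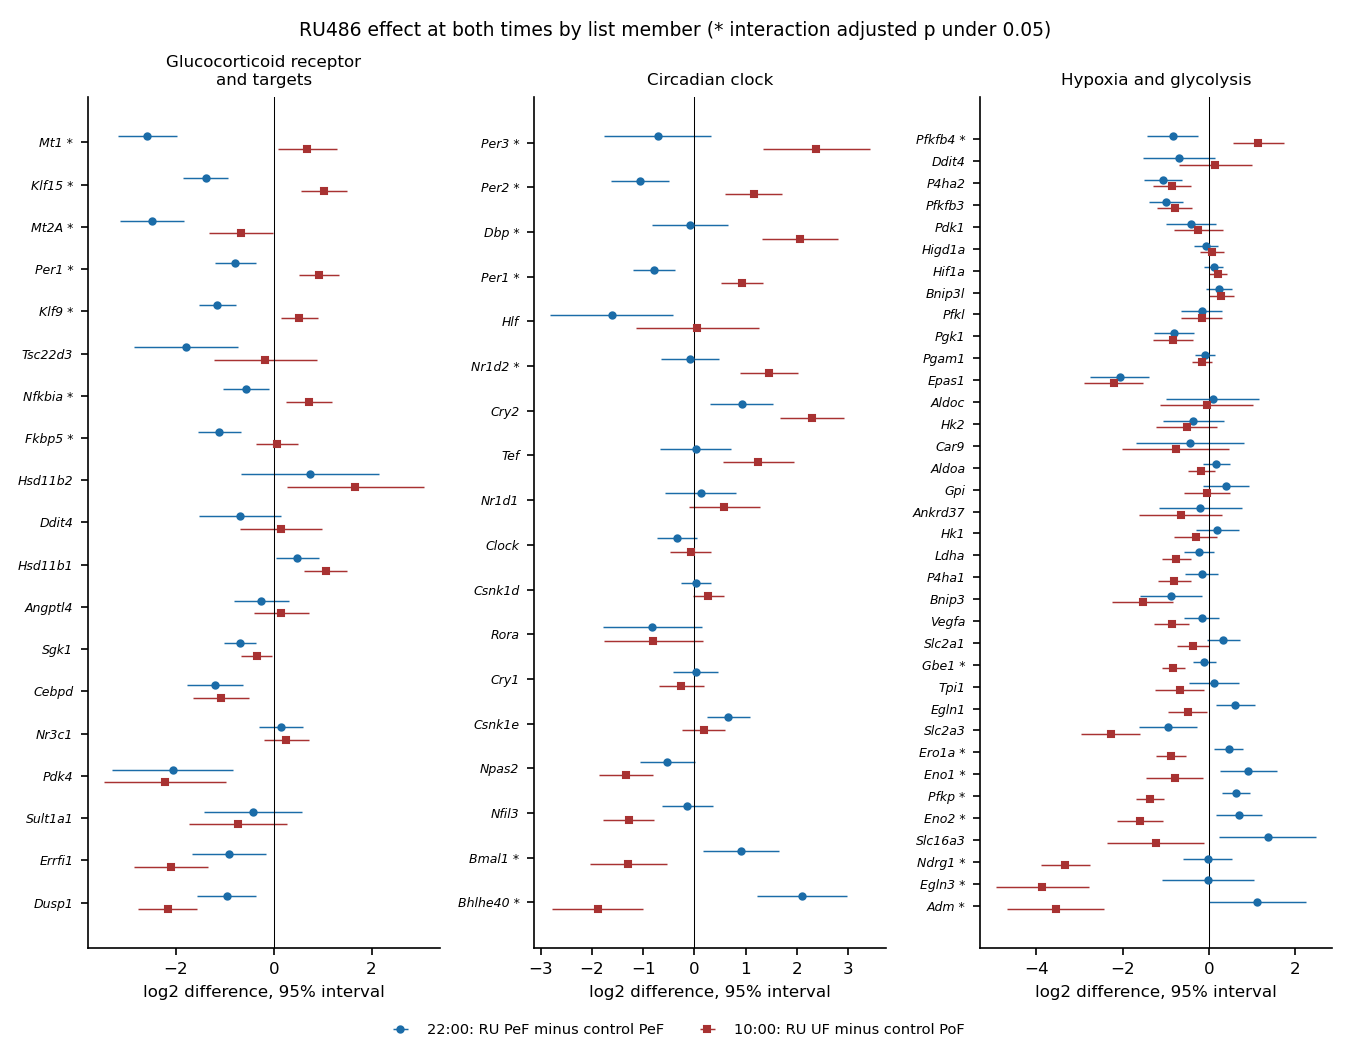
Log2 difference with its 95% interval for every measured member of 3 gene lists, at 22:00 (RU PeF minus control PeF, circles) and 10:00 (RU UF minus control PoF, squares); an asterisk marks an interaction past adjusted p 0.05. In the glucocorticoid list 7 of 19 members carry an asterisk, in the clock list 7 of 18 and in the hypoxia list 9 of 36.

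The early-only higher genes included the activin subunit gene Inhbb and the endotoxin co-receptor gene Cd14. Inhbb had 8.91, 9.25 and 8.46 in RU PeF, against 7.02, 7.13 and 6.94 in control PeF. At 10:00 it had 9.66, 9.51 and 9.66 in RU UF, against 9.90, 9.62 and 9.93 in control PoF. RU PeF lay above the controls without overlap, 3.59-fold on average (adjusted p = 3.14e-06), and by 10:00 the groups overlapped at a higher level in both arms. The interaction was -2.06 ± 0.23 (SE; adjusted p = 0.000267), and the 95% interval of the 10:00 difference ran from -0.56 to 0.14.

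Cd14 had 7.57, 8.37 and 7.80 in RU PeF, against 6.01, 6.03 and 5.13 in control PeF. The 10:00 signals were 6.0, 5.43 and 6.29 in RU UF, against 6.48, 6.69 and 7.31 in control PoF. It was 4.56-fold higher in RU at 22:00 (adjusted p = 0.000658), and lower in every RU UF sample than in any control PoF sample without a call (adjusted p = 0.102). Cd14 also stands in the leukocyte marker list; the summed signal of the 13 measured leukocyte markers was 562 to 705 in RU PeF and 643 to 747 in control PeF, so the list did not rise with it. Rab7b, a GTPase of endosome traffic, showed the same pattern at 2 probe sets, with interactions of -3.65 and -3.15. Tmem139, Uchl1 (a neuronal ubiquitin hydrolase) and Slc6a9 (a glycine transporter) were higher in RU PeF by 2.45, 2.15 and 1.34. Aldh1a3, which makes retinoic acid, was at background in control PeF and at least 4.36-fold higher in RU PeF. Its fitted interaction of -4.14, which rests on that background signal, was called in 3 of 12 fits without 1 array and had an adjusted p of 0.0605 without control PeF 3. Slc6a9 was called in 5 and Uchl1 in 5 of those 12 fits. A second Slc6a9 probe set gave an interaction of -1.42 with no call (adjusted p = 0.407).

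The late-only lower genes named here included Ndrg1, Adm, Nt5e, Egln3 and Stc1. Ndrg1, a hypoxia-induced gene, had 7.13, 7.29 and 6.90 in RU PeF, against 6.89, 6.91 and 7.62 in control PeF. By 10:00 the signals were 5.27, 5.78 and 5.97 in RU UF, against 9.23, 9.07 and 8.72 in control PoF. The groups overlapped at 22:00 and were far apart at 10:00, where RU UF was 10.0-fold lower (log2 difference -3.33 ± 0.27, SE; adjusted p = 1.32e-06). The interaction was -3.30 ± 0.38 (SE; adjusted p = 0.000267), with RU UF below RU PeF by 1.43 and control PoF above control PeF by 1.87.

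Adm, the vasodilator adrenomedullin, had 3.93, 3.77 and 3.72 in RU PeF, against 2.74, 3.23 and 2.07 in control PeF, where it was at background. In the later follicles it had 3.69, 3.78 and 3.63 in RU UF, against 8.32, 7.44 and 5.99 in control PoF. RU follicles held 1 low level at both times while the controls of 10:00 were 11.7-fold brighter (adjusted p = 0.000352). Egln3, an oxygen-sensing prolyl hydroxylase, was at background in RU UF, at least 7.18-fold below control PoF, and at background in control PeF too. Nt5e, the cell-surface enzyme that makes adenosine, had 9.39, 10.30 and 10.81 in RU PeF, against 8.83, 10.01 and 9.47 in control PeF. At 10:00 it had 6.12, 5.93 and 6.06 in RU UF, against 9.66, 8.64 and 9.11 in control PoF. In Nt5e it was the RU arm that fell with time, by 4.13 (adjusted p = 5.65e-07), while control PoF and control PeF differed by -0.30 (adjusted p = 0.584).

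Stc1 (the glycoprotein hormone stanniocalcin) and Fmo1 (a flavin monooxygenase) were 5.98-fold and 5.51-fold lower in RU UF. Dusp2, a MAP kinase phosphatase, was at background in RU UF and at least 2.43-fold lower there than in control PoF (adjusted p = 0.00217). Stc1 and Hpgd, which breaks down prostaglandins, gave called negative interactions at both of their probe sets. Hmox1 (heme oxygenase) was 3.50-fold lower in RU UF, and Serpine2 (a protease inhibitor) 2.36-fold lower. Smaller late-only decreases in RU were measured for Sdhb, a subunit of succinate dehydrogenase (1.90-fold), Hsp90b1, a chaperone of the endoplasmic reticulum (1.36-fold), and the cell cycle kinase Cdk1 (2.02-fold). The Cdk1 interaction of -1.21 was called in 2 of 12 fits without 1 array, with adjusted p up to 0.0982, and that of Hsp90b1 in 7.

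In the list of hypoxia and glycolysis genes, 8 of 36 measured members had a called negative interaction and 1 a positive one. The shares of all genes were 2.17% and 2.27%. At 22:00, 4 members were lower and 1 higher in RU PeF, beside 4.75% and 3.77% of all genes. At 10:00, 16 were lower and 1 higher in RU UF, beside 5.46% and 4.52% of all genes. The median difference was -0.08 at 22:00 and -0.76 at 10:00. The 8 were Adm, Egln3, Ndrg1, the glycolytic Eno1, Eno2 and Pfkp, the oxidase Ero1a and the glycogen branching enzyme Gbe1, and the 1 with a positive value was Pfkfb4 (-0.84 at 22:00 and 1.15 at 10:00). With median scaling, 6 had a negative and 0 a positive call. The list did not move as 1. Epas1, a subunit of the hypoxia-inducible factors, was lower in RU by 2.06 at 22:00 and 2.20 at 10:00. Its interaction was not called (adjusted p = 0.901). Vegfa, the vascular growth factor, was lower by 0.86 at 10:00 with an interaction of -0.69 ± 0.28 (SE; adjusted p = 0.18). At a second Vegfa probe set the 10:00 difference was -1.73 and the interaction -1.39, also with no call (adjusted p = 0.118).

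The late-only higher genes held the hedgehog ligand Dhh, aromatase and enzymes of cholesterol synthesis. Dhh, which granulosa cells use to signal to theca, had 4.61, 4.26 and 2.86 in RU PeF, against 4.63, 4.60 and 3.96 in control PeF. The 10:00 signals were 9.06, 8.75 and 8.69 in RU UF, against 5.53, 5.55 and 5.65 in control PoF. The groups overlapped at 22:00, and at 10:00 RU UF stood 9.54-fold higher with little spread (adjusted p = 7.04e-05). The interaction was 3.74 ± 0.58 (SE; adjusted p = 0.00146). Sema3d, an axon-guidance ligand, was 10.2-fold higher in RU UF than in control PoF and at background in RU PeF.

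Cyp19a1, the aromatase that makes estradiol, had 9.0, 9.11 and 8.98 in RU PeF, against 7.38, 8.31 and 9.56 in control PeF. By 10:00 the signals were 7.72, 7.39 and 6.80 in RU UF, against 3.80, 3.82 and 4.02 in control PoF. Aromatase signal fell with time in both arms, by 1.73 in RU and by 4.54 in controls, and RU UF was 10.7-fold above control PoF (adjusted p = 0.000244). Of the 3 Cyp19a1 probe sets, 2 had a called interaction (2.81 and 3.53) and 1 did not (1.19), and the first was called in 4 of 12 fits without 1 array. Vcan, the matrix proteoglycan versican, fell less in RU follicles than in controls, with a difference of 0.06 ± 0.16 at 22:00 and 1.51 ± 0.16 (SE) at 10:00, and 4 of its 5 probe sets had a called interaction. Aldh1a1, a retinaldehyde dehydrogenase of the theca marker list, was 6.08-fold higher in RU UF. The summed signal of the 10 measured theca markers was 18833 to 19280 in RU UF and 11299 to 12061 in control PoF. Their median log2 difference at 10:00 was -0.20, so the markers did not rise as a group. The part of the theca sum in this result was not tested. The kinase phosphatase gene Dusp6 was 2.72-fold higher in RU UF, but its other probe sets gave no call for the interaction. At the first, the interaction was called in 4 of 12 fits without 1 array (adjusted p up to 0.0881).

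Hsd17b7, a reductase of cholesterol synthesis, had 8.42, 8.43 and 7.94 in RU PeF, against 7.41, 7.40 and 8.70 in control PeF. In the later follicles it had 10.92, 11.12 and 11.10 in RU UF, against 8.47, 8.47 and 7.86 in control PoF. It was 6.88-fold higher in RU UF (adjusted p = 8.49e-06), with an interaction of 2.35 ± 0.39 (SE; adjusted p = 0.00202) and a like value of 2.26 at its second probe set. Of 18 measured genes of cholesterol synthesis and uptake, 13 were higher in RU PeF and 16 in RU UF, beside 3.77% and 4.52% of all genes, and 0 were lower at either time by limma. Their median difference was 0.80 at 22:00 and 1.52 at 10:00, and 4 had a called positive interaction, beside 2.27% of all genes: Hsd17b7, Mvd, Stard4 and Lss, the last named to complete the count. With median scaling 1 member had a called interaction, and without any scaling the median interaction of these genes was -0.92, against -1.45 for all probe sets. Stard4, a sterol carrier, was called in 9 of 12 fits without 1 array and was not called at its other 2 probe sets. Por, the electron donor of cytochromes P450, had an interaction of 1.4 that was called in 4 of 12 fits without 1 array (adjusted p up to 0.0874) and was -0.05 at a second probe set.

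Of 16 measured interferon-responsive genes, 2 had a called positive interaction, beside 2.27% of all genes, and both were late-only higher. Usp18, which removes the ubiquitin-like ISG15 from proteins, was 4.59-fold higher in RU UF, and Irf9, the DNA-binding part of the interferon-stimulated factor, 2.32-fold higher. The 3 RU UF values of Irf9 were 6.42, 6.70 and 7.75, against 5.90, 5.49 and 5.85 in control PoF. Its second probe set gave an interaction of 0.29 (adjusted p = 0.864). The median interaction of the list was 0.62, against -0.09 for all genes, with 13 of 16 members above 0. Without control PoF 2 neither was called (adjusted p = 0.0537 for Usp18 and 0.0565 for Irf9), and with median scaling 1 member was called.

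**Figure D4:**
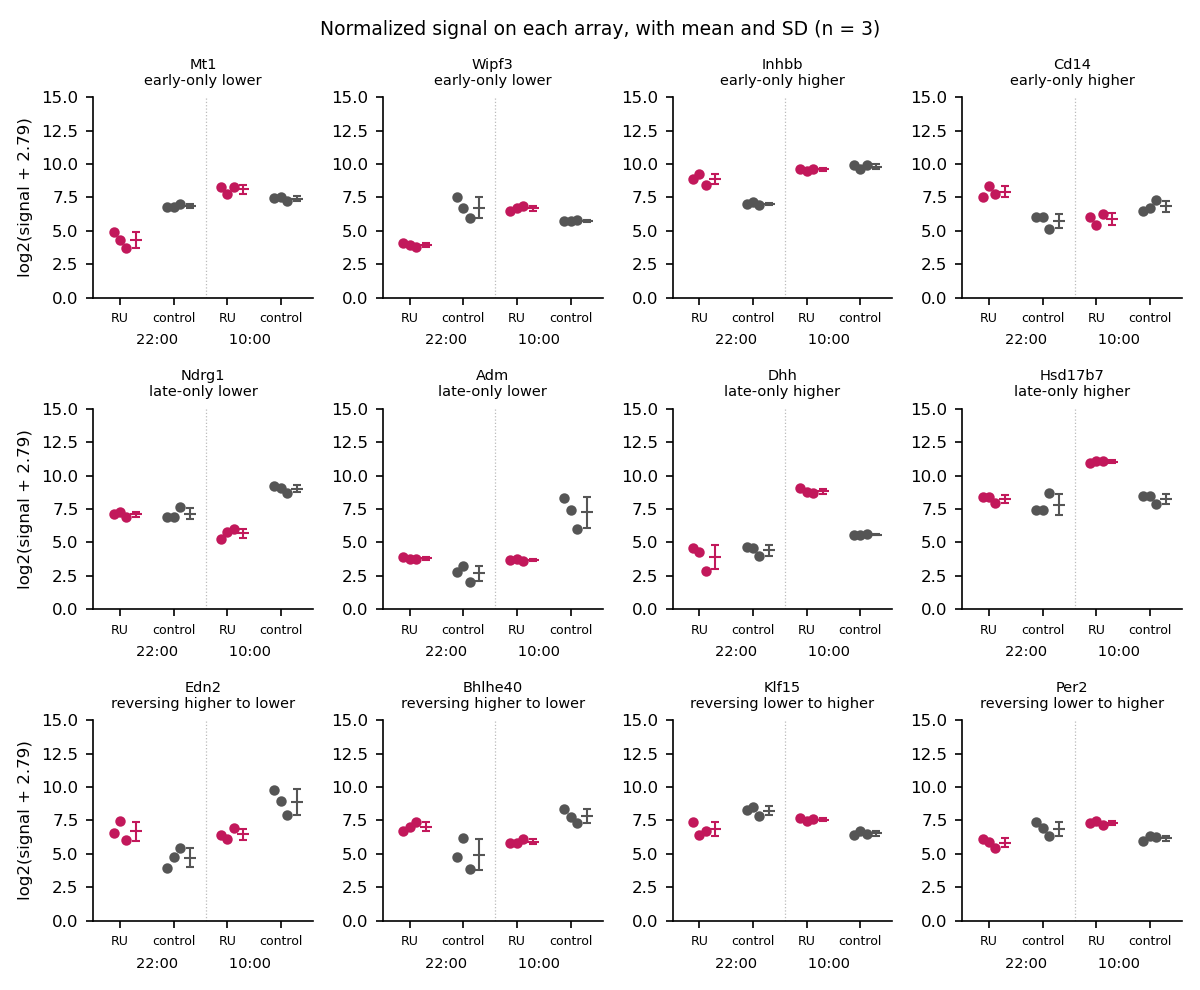
Normalized log2 signal on each array for 12 genes, 2 of each class, with RU486 samples to the left of the controls at 22:00 and at 10:00; bars give the mean and SD of 3 arrays. Groups separate at 22:00 in the early-only panels, at 10:00 in the late-only panels and at both times, in opposite order, in the reversing panels. This follows largely from how the genes were sorted and chosen. In Mt1, Wipf3, Cd14 and Adm the groups also lie apart at the other time, in opposite order, without a call there.

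In the 31 reversing genes RU and control follicles changed order between the times. The 16 genes lower in RU PeF and higher in RU UF had a median difference of -0.90 at 22:00 and 0.88 at 10:00, and the 15 genes higher in RU PeF and lower in RU UF had 0.72 and -0.81. In 15 of the 16 the 3 RU and 3 control values did not overlap at 22:00. That follows largely from the sorting, which required a called difference at 22:00. All 96 early-only lower genes were likewise apart at that hour. Over all genes the share was 25.9% at 22:00 and 38.4% at 10:00. Genes of the circadian clock and its outputs stood in both directions. Per1, Per2 and Klf15 went lower to higher, and Bhlhe40 went higher to lower.

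Several of these genes belong to the clock, which acts through the E-box CACGTG. The 250 bases before the start of each named gene were searched for that motif on both strands (it holds the shorter ACGTG). The same search covered TGTTCT, the half-site of the progesterone and glucocorticoid receptors, and ACGTG and GCGTG, cores of the hypoxia response element. RefSeq promoters (build GRCr8) were matched for 63 of 75 named genes, 13 of them reversing. CACGTG lay in 4 of those 13, in 8 of the 63, and in 5.59% of 33469 rat promoters. TGTTCT lay in 8 of the 63, beside 17.5% of all promoters. ACGTG or GCGTG lay in 35 of the 63, beside 36.7% of all promoters. The windows of 60 bases shown are those of the 4 reversing genes with a CACGTG match, with the E-box in capitals. A match is a description of the letters and not a sign of binding. Of the 13, 9 had no CACGTG in this window, with Per1, Per2 and Edn2 among them.
Bhlhe40, chr4:143174210-143174269, plus strand: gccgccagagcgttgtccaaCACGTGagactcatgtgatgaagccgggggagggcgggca
Nupr1, chr1:190646037-190646096, minus strand: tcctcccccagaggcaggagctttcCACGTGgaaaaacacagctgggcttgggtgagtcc
Klf15, chr4:124522885-124522944, plus strand: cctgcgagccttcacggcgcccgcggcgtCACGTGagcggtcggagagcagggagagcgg
Slc25a33, chr5:165503004-165503063, minus strand: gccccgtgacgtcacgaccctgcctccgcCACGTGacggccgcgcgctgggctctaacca

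Bhlhe40, a repressor that binds E-boxes, had 6.68, 7.05 and 7.37 in RU PeF, against 4.77, 6.17 and 3.88 in control PeF. At 10:00 it had 5.83, 5.84 and 6.10 in RU UF, against 8.34, 7.77 and 7.32 in control PoF. Every RU value lay above the controls at 22:00 and below them at 10:00. The fold was 4.27 higher in RU PeF (adjusted p = 0.00546) and 3.71 lower in RU UF (adjusted p = 0.00831), with an interaction of -3.98 ± 0.59 (SE; adjusted p = 0.00112). Without control PeF 3 the interaction was -3.47 (adjusted p = 0.000545).

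Edn2, the constrictor peptide endothelin-2 that rodent follicles make around rupture, had 6.57, 7.47 and 6.01 in RU PeF, against 3.97, 4.76 and 5.44 in control PeF. The 10:00 signals were 6.42, 6.10 and 6.91 in RU UF, against 9.81, 8.98 and 7.91 in control PoF. RU follicles kept 1 middle level while control follicles were below it at 22:00 and above it at 10:00. The interaction was -4.38 ± 0.69 (SE; adjusted p = 0.00152). The glycolytic Pfkp was 1.56-fold higher in RU PeF and 2.57-fold lower in RU UF, and the stress regulator Nupr1 2.10-fold higher and 2.47-fold lower. Timp1, an inhibitor of matrix metalloproteinases, was 1.81-fold higher in RU PeF and 1.96-fold lower in RU UF. Igf1, the growth factor, was 2.22-fold higher in RU PeF and 2.10-fold lower in RU UF; it was late-only lower at both of its other probe sets, with interactions of -3.24 and -1.79.

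Klf15, a glucocorticoid-induced transcription factor of metabolism, had 7.42, 6.42 and 6.69 in RU PeF, against 8.32, 8.53 and 7.86 in control PeF. By 10:00 the signals were 7.68, 7.44 and 7.60 in RU UF, against 6.40, 6.74 and 6.50 in control PoF. Per2, a repressor of the clock, had 6.09, 5.92 and 5.45 in RU PeF, against 7.39, 6.93 and 6.34 in control PeF, and 7.29, 7.50 and 7.19 in RU UF, against 5.96, 6.30 and 6.26 in control PoF. In both genes the groups did not overlap at either time. Klf15 was 2.62-fold lower and then 2.04-fold higher in RU (interaction 2.42 ± 0.31, SE; adjusted p = 0.00043), and Per2 was 2.09-fold lower and then 2.22-fold higher (interaction 2.22 ± 0.38, SE; adjusted p = 0.00275).

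Slc25a33, a mitochondrial carrier of pyrimidine nucleotides, had the smallest adjusted p of any named interaction (2.27 ± 0.22, SE; adjusted p = 7.94e-05). It had 6.55, 6.41 and 6.54 in RU PeF, against 8.03, 8.34 and 8.02 in control PeF, and 6.41, 6.71 and 6.56 in RU UF, against 5.90, 6.11 and 5.78 in control PoF. RU follicles again held 1 level, and the controls fell past it. Slit2, a ligand of Robo receptors, and the corepressor Tle4 had interactions of 2.36 and 2.64, with Slit2 bearing the same sign at a second probe set and Tle4 giving no call there. Prlr, the prolactin receptor, was 1.82-fold lower in RU PeF and 1.96-fold higher in RU UF (interaction 1.84 ± 0.22, SE; adjusted p = 0.000267), while its 2 dimmer probe sets gave -0.37 and 0.26 with no call. Gmnn, an inhibitor of DNA replication licensing, had 2.13 at 1 probe set and 0.06 at the other.

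Of the 18 measured clock genes, 5 had a called positive and 2 a called negative interaction, beside 2.27% and 2.17% of all genes. The positive ones were Per1, Per2, Per3, Dbp and Nr1d2, and the negative ones Bhlhe40 and Bmal1, of which Dbp, Nr1d2 and Bmal1 are named to complete the count. Dbp, a transcription factor driven by E-boxes, was -0.08 at 22:00 and 2.05 at 10:00, and Bmal1, the activator of the clock, was 0.91 and -1.29. Per3 was at background in RU PeF, control PeF and control PoF, and in RU UF it was at least 3.01-fold above control PoF (adjusted p = 0.00547). Each RU group was compared with controls of the same hour. With median scaling 2 members had a positive and 3 a negative call, and without control PeF 3 the counts were 7 and 2. Clock, Cry1, Nr1d1 and Csnk1d had interactions between -0.28 and 0.46, none called.

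In 14 genes RU differed from control in the same direction at both times and by unequal amounts. Cxcr4, a chemokine receptor known as a progesterone receptor target, had 4.85, 4.75 and 4.69 in RU PeF, against 10.57, 9.35 and 8.91 in control PeF. In the later follicles it had 8.48, 8.71 and 7.71 in RU UF, against 10.30, 10.27 and 10.35 in control PoF. The decrease in RU was 28.8-fold at 22:00 and 4.02-fold at 10:00, with an interaction of 2.84 ± 0.50 (SE; adjusted p = 0.0035), a called value of 2.08 at a second probe set and 1.30 with no call at the other. F3, tissue factor, was 13.5-fold lower in RU PeF and 3.43-fold lower in RU UF (interaction 1.98 ± 0.45, SE; adjusted p = 0.0176). Star, which carries cholesterol into mitochondria for steroid synthesis, was 1.86-fold higher in RU PeF and 3.86-fold higher in RU UF (interaction 1.05 ± 0.20, SE; adjusted p = 0.00602), with 0.71 and no call at its second probe set.

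A list of Pgr and targets reported for its protein in follicles had 15 measured genes. Of these, 2 had a called positive interaction (Cxcr4 and Fkbp5) and 1 a negative one (Edn2), beside 2.27% and 2.17% of all genes. At 22:00, 6 were lower and 2 higher in RU PeF, and at 10:00, 4 were lower and 1 higher in RU UF. The shares of all genes were 4.75% lower and 3.77% higher at 22:00, and 5.46% and 4.52% at 10:00. With median scaling 3 were lower in RU PeF. Adamts1, a protease of the ovulating follicle that depends on the receptor, was 5.12-fold lower in RU PeF and 2.89-fold lower in RU UF, with an interaction of 0.82 ± 0.38 (SE; adjusted p = 0.252) and a 95% interval from 0.02 to 1.63. Pgr itself was at background in control PoF, and its interaction of -0.86 ± 1.04 (SE) was not called. Ptgs2, the inducible cyclooxygenase, was lower at 10:00 than at 22:00 in both arms, by 8.61 in RU and 7.68 in controls, with an interaction interval from -3.40 to 1.53. Among steroidogenic genes Cyp11a1 had an interaction of 0.17 (95% interval -0.10 to 0.45), Akr1c3 -1.24 (-2.25 to -0.24), Cyp17a1 2.58 (0.82 to 4.35) and Lhcgr, the luteinizing hormone receptor, 1.71 (-0.20 to 3.63), none of them called.

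**Figure D5:**
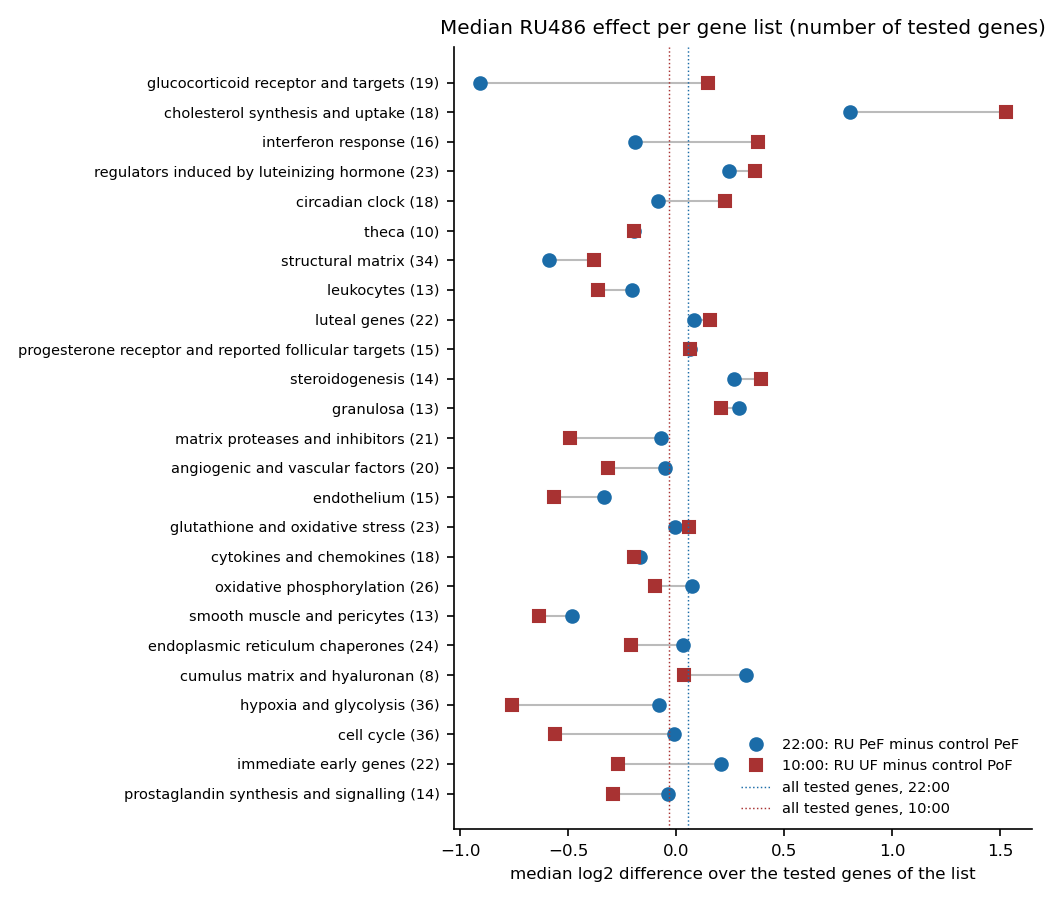
Median log2 difference of each gene list with at least 5 measured genes at 22:00 (RU PeF minus control PeF, circles) and 10:00 (RU UF minus control PoF, squares), with the number of measured genes in brackets and dotted lines at the medians of all genes, 0.05 and -0.04. Of the lists drawn, the glucocorticoid list has the widest gap, -0.91 at 22:00 and 0.15 at 10:00.

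By summed signal of cell type markers, smooth muscle and endothelium were lower in RU at both times. Theca, surface epithelium and erythrocytes were apart at 10:00 alone, with theca higher in RU and the other lists lower. The granulosa and leukocyte sums overlapped between RU and control at both times. The 10 measured theca markers summed to a signal of 14861 to 16942 in RU PeF and 14563 to 17872 in control PeF, which overlap. At 10:00 the sum in RU UF lay above that in control PoF, as given above. A sum is weighted to its brightest members, and the theca list was mixed at 10:00, with 4 of 10 differences above 0. In RU UF, 4 theca markers were called higher and 2 lower, beside 4.52% and 5.46% of all genes. The median difference of the theca list was -0.20 at both times. The 13 measured smooth muscle and pericyte markers summed to a signal of 454 to 561 in RU PeF and 861 to 1018 in control PeF, and to 861 to 993 in RU UF and 1292 to 1605 in control PoF. The 15 measured endothelial markers summed to 1084 to 1324 in RU PeF and 1606 to 1642 in control PeF, and to 820 to 1149 in RU UF and 1389 to 1456 in control PoF. The smooth muscle and endothelial sums were lower in RU without overlap at both times, and their part in the results above was not tested. By member, 5 of 13 smooth muscle differences were above 0 at 22:00 and 1 at 10:00. For the 15 endothelial markers the counts were 1 and 2. At 22:00, 4 smooth muscle and 2 endothelial markers were called lower, beside 4.75% of all genes. At 10:00, 1 of each list was called lower, beside 5.46%. Of these markers, 0 endothelial genes and 1 smooth muscle gene had a called interaction, beside 4.44% of all genes. That gene was Myh11, the smooth muscle myosin heavy chain, at -2.11 ± 0.32 at 22:00 and -0.39 ± 0.32 (SE) at 10:00, and its interaction was called in 3 of 12 fits without 1 array (adjusted p up to 0.0936, and 0.0557 without control PeF 3). The 3 measured surface epithelium markers summed to 50.5 to 69.1 in RU PeF and 67.5 to 83.2 in control PeF, and to 123 to 179 in RU UF and 218 to 316 in control PoF. The 3 measured erythrocyte markers summed to 456 to 1096 in RU PeF and 470 to 1770 in control PeF, and to 238 to 341 in RU UF and 360 to 645 in control PoF. Of 16 granulosa markers 13 were measured and 0 of these were at background in any group.

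A comparison without control arrays set the time course of RU follicles beside that of follicles from rats given 4 mg/kg indomethacin (IM) at 16:00 of proestrus, collected at the same hours (IM PeF and IM UF, 3 samples each). Indomethacin blocks prostaglandin synthesis and likewise leaves unruptured follicles at 10:00. The arrays IM UF 2 and IM PeF 2 were among the 3 dimmest of the 18. The change of RU follicles minus the change of IM follicles was called at 3.1% of genes; it shares the RU arrays with the interaction, so values are given side by side and not as support. Dhh changed by 4.02 ± 0.58 (SE) more in RU than in IM follicles (adjusted p = 0.000818), Slc25a33 by 2.69 ± 0.22 more (adjusted p = 1.13e-05) and Klf15 by 2.57 ± 0.31 more (adjusted p = 0.000271). Nt5e changed by -3.86 ± 0.58 (adjusted p = 0.00113) and Edn2 by -3.79 ± 0.69 (adjusted p = 0.00507). Genes with a called interaction against controls and no call here included Egln3 at -0.42 (95% interval -1.94 to 1.10), Adm at -1.35 (-2.94 to 0.24), Hmox1 at -0.55 (-1.21 to 0.11), Hsd17b7 at 0.70 (-0.11 to 1.52) and Mvd at 0.52 (-0.13 to 1.18). The late Adm values of IM UF, 5.20, 3.93 and 4.14, lay below all 3 control PoF values, as those of RU UF did.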

How the data were processed

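Follicle RNA from 18 samples in 6 groups of 3 was hybridized to arrays with 31099 probe sets. The deposited values are linear intensity per probe set, none below 1. The submitters' processing notes list MAS5; which version and scaling it had is not stated in those sources. Median signals differed between arrays, so the deposited signals of the non-control probe sets were quantile-normalized and taken as log2(signal + 2.79), where 2.79 is the 20th percentile of all values. A probe set was kept where 3 or more of the 18 arrays held it above that array's median, and kept ones were tested with limma 3.58.1 (R 4.3.3; 1 mean per group over all 18 arrays, 12 residual degrees of freedom, variance trend, Benjamini-Hochberg adjustment at 0.05 over all 18155). "At background" means at or below the brightest of 27 unspiked control probe sets on all 3 arrays; folds against such groups are bounds. A gene was represented by its brightest probe set with 1 symbol, through the platform annotation. Figures used matplotlib 3.10.9 (Python 3.11.15).

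The comparisons were RU PeF against control PeF, RU UF against control PoF and their difference. The smallest two-sided p of an exact permutation of 3 and 3 samples is 0.1, and no gene was tested that way. The scripts were tested on simulated data. Named genes were the 6 per class with the largest interaction whose RU values lay beyond all control values where called, up to 3 called per list, 15 of 17 fixed genes that were measured, and the gene on each side of the threshold. The members and lists were chosen with earlier results of these data known. Lists are described by counts and medians, with no set test. Replicate numbers did not pair the samples: deviations of same-numbered samples correlated between -0.114 and 0.054. Alternatives were scaling, pseudocount, filter, arrays fitted, replicate block, array weights, variance prior, class definition and leaving out arrays. The number of arrays limits the precision.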

Additional observations from a re-analysis of the deposited data

Results flagged for a closer look

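The difference between the RU486 effect at 10:00 and that at 22:00 was itself tested with limma, and 730 probe sets passed. The 65 named genes among them are given here by their interaction on the log2 scale, a positive value meaning that RU follicles stood higher relative to controls at 10:00. Those of Ptges, Fam107a, Aldh1a3, Adm, Egln3, Dusp2, Fmo1, Sema3d and Per3 are fitted values that rest partly on groups at background. Among genes lower in RU PeF at 22:00 alone, the values were Mt1 3.27, Wipf3 3.72, Klf9 1.67, Slc6a6 1.5, Il6r 1.93, Ptges 2.94, Fam107a 3.37, Fkbp5 1.18, Aard 3.97, Myh11 1.72 and Susd3 3.45. Among genes higher in RU PeF at 22:00 alone, they were Inhbb -2.06, Cd14 -3.11, Rab7b -3.65, Tmem139 -4.05, Uchl1 -2.44, Slc6a9 -2.17 and Aldh1a3 -4.14.

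Among genes lower in RU UF at 10:00 alone, they were Ndrg1 -3.30, Hmox1 -2.22, Nt5e -3.83, Eno2 -2.30, Adm -4.67, Stc1 -3.79, Egln3 -3.84, Dusp2 -3.51, Hpgd -2.18, Serpine2 -2.29, Fmo1 -3.54, Sdhb -0.98, Hsp90b1 -0.77 and Cdk1 -1.21. Among genes higher in RU UF at 10:00 alone, they were Dhh 3.74, Vcan 1.45, Hsd17b7 2.35, Sema3d 3.51, Mvd 1.51, Aldh1a1 2.69, Usp18 2.91, Irf9 1.61, Per3 3.10, Stard4 1.70, Cyp19a1 2.81, Por 1.4 and Dusp6 1.85.

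Among the reversing genes, the values were Pfkp -2.00, Timp1 -1.82, Igf1 -2.22, Bhlhe40 -3.98, Edn2 -4.38 and Nupr1 -2.37 for those higher and then lower in RU. They were Slc25a33 2.27, Prlr 1.84, Klf15 2.42, Gmnn 2.13, Slit2 2.36, Tle4 2.64, Per1 1.71 and Per2 2.22 for those lower and then higher. Star had 1.05 (higher at both times), Cxcr4 2.84 and F3 1.98 (lower at both times). Cebpb had 0.78, Ddit3 -1.53 and Lmo4 -1.03, with neither single comparison called. In 12 fits that each left out 1 array, Cebpb was called in 5, Ddit3 in 3, Lmo4 in 2 and F3 in 9.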

How the results depend on the processing

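The 730 probe sets with a called interaction, 1348 called at 22:00 and 1579 at 10:00, and the 158 early-only, 213 late-only and 31 reversing genes depended on scaling and on single arrays. Deposited signals with no scaling gave 82, 22 and 151 probe sets and 3, 25 and 0 genes. Median scaling gave 340, 893 and 793 probe sets and 66, 105 and 13 genes. Array weights gave 2446, 3486 and 3686 probe sets and 517, 647 and 144 genes. Leaving out the 3 dimmest arrays (control PeF 3, IM UF 2 and IM PeF 2) gave 1664, 2266 and 3102 probe sets and 348, 439 and 89 genes. Without the variance trend 100 early-only and 17 reversing genes were left. An adjusted p of 0.01 left 46, 72 and 6 genes of the classes, and 9 reversing genes had both differences beyond 1 log2 unit. Leaving out 1 array gave 363 (control PoF 2) to 927 (control PeF 3) probe sets for the interaction, 622 (RU PeF 3) to 1631 (control PeF 2) at 22:00 and 864 (RU UF 2) to 2320 (control PeF 3) at 10:00. The classes then held 69 to 216 early-only, 100 to 271 late-only and 15 to 49 reversing genes. The interaction count also moved by over 1.5 times without control PoF 3 (436), RU PeF 2 (432), RU PeF 3 (424), RU UF 1 (442), RU UF 2 (444) or RU UF 3 (462). The replicate numbers did not pair the samples, and a fit with the replicate block called 598 probe sets for the interaction, 1123 at 22:00 and 1382 at 10:00. With deposited signals 17 of the 65 named interactions kept their call and 42 lost it. That setting called 0 positive interactions, so every named positive call was lost. The other 6 changed sign: Mvd -0.14, Star -0.42, Slc6a6 -0.13, Cebpb -0.79, Por -0.25 and Fkbp5 -0.44. Median scaling kept 47 of the 65 calls and turned 0. The cause of these moves was not tested. With 3 arrays a group, the floor of the deposited signals limits dim genes.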

Other observations

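Genes of the structural matrix, the collagens and other fibres of the follicle wall, were called lower in RU in part. Of 34 measured members 13 were lower and 1 higher in RU PeF, beside 4.75% and 3.77% of all genes, and 8 were lower and 1 higher in RU UF, beside 5.46% and 4.52%. Their median differences were -0.59 and -0.38. By limma 0 had a called interaction, against 3 without the 3 dimmest arrays (2 positive and 1 negative), and with median scaling 3 were lower in RU PeF. Of 36 measured cell cycle genes 31 had an interaction below 0, as did 5895 of all 10391 genes. A negative interaction was called for 1 of the 36, beside 2.17% of all genes. Immediate early genes are transcribed within minutes of a stimulus. Of 22 measured, 2 were higher and 6 lower in RU UF, beside 4.52% and 5.46% of all genes. Their median interaction was -0.52, against -0.09 for all genes. In the list of matrix proteases and inhibitors 3 of 21 had a called negative interaction, Plat (tissue plasminogen activator) at -2.83, Serpine2 and Timp1, and 1 a positive one, F3. In the luteal list 3 of 22 were called with a positive value (Prlr, Slc6a6 and Star) and 3 with a negative one (A2m at -2.66, Prss23 at -1.17 and Timp1). For both lists, the shares of all genes were 2.27% with a positive and 2.17% with a negative call. Plat, A2m and Prss23 were named after their values were seen.

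The 4 measured oocyte markers summed to a signal of 112 to 320 in RU PeF and 21.8 to 129 in control PeF, and to 41.4 to 138 in RU UF and 16.5 to 87.4 in control PoF.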
